A study of Homo sapiens with 12 samples.

Results

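The transcripts of 10 genes were followed in SW1783 cells given a water extract of Aconitum carmichaeli Debeaux (ACD). Most take part in the phosphorylation of the translation factor eIF2 or its reversal, whereas EIF4EBP1 acts on cap-dependent translation. The genes were chosen by name: the 4 eIF2alpha kinases EIF2AK1, EIF2AK2, EIF2AK3 and EIF2AK4, the phosphatase subunits PPP1R15A and PPP1R15B, the substrate EIF2S1, the mitochondrial relay genes DELE1 and OMA1, and the cap-binding inhibitor EIF4EBP1. All 10 were found among the 60675 gene IDs of the deposited table, of which 30808 had a count, and none was lost to a filter on low values. SW1783 is an established human astrocytoma line. Cells were treated for 24 h with vehicle, which was PBS with 2% DMSO, or with the extract. The doses were 20, 100 and 500 µg/mL, called low, medium and high. By the authors' account the extract solutions were added to wells that held growth medium. The 2% thus describes the vehicle solution, and the final DMSO content of the cultures is not stated. Each of the 4 groups had 3 libraries. The solvent in which the 2 lower doses were diluted is not stated in the sources used here. Titles and treatment labels of the samples give ACD as the extract, but the attached treatment protocol describes a different herb, Poria cocos, so the identity of the extract rests on the former. Nothing in the labels says that replicates came from separate cultures, so p-values measure the spread between these libraries, which may be technical.

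The phosphorylation of eIF2alpha is the switch of the integrated stress response. The 4 kinases each sense another kind of stress and phosphorylate the same serine of eIF2alpha, which blocks the exchange factor eIF2B, lowers protein synthesis in general and favours translation of a few messages such as that of ATF4. The phosphatase PP1 reverses the mark when it is brought to eIF2alpha by the protein of PPP1R15A (GADD34, induced by stress) or of PPP1R15B (CReP, made all the time). A relay from mitochondria joins the system when the inner membrane protease OMA1 cuts DELE1, which then activates the kinase HRI. All of this works at the level of proteins and their phosphorylation, whereas only RNA was measured here.

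Total counts lay between 18863863 and 24200576 per library. Of the 8 glial markers, VIM lay between 84470 and 109276 normalised counts and SOX9 between 1153 and 1528 over the 12 libraries, whereas AQP4 was at 0, GFAP and S100B did not exceed 5.26 and 5.12, and ALDH1L1 did not exceed 1.87. Thus 4 defining astrocyte markers were absent or nearly so. SLC1A3 and NES were lower than vehicle at the high dose by 2.45 and 1.72 on the log2 scale. SOX9 had a log2 fold change of -0.25 there, and VIM one of 0.29. Of the 4 markers of other cell types, EPCAM, PECAM1 and RBFOX3 stayed at or under 14.9 normalised counts, and the leukocyte marker PTPRC, at 72.0 to 286, was lower at the high dose (log2 fold change -1.71). The 8 glial markers summed to 86740 to 94898 in vehicle and 108757 to 110657 at the high dose, and the 4 others to 276 to 307 and 84.7 to 125. The glial sum was almost wholly VIM, with means of 88412 in vehicle and 108048 at the high dose, so its rise does not describe the other markers. The part of these shifts in the results was not tested, and RNA was taken from whole cultures, so fewer cells of a kind and less RNA per cell cannot be told apart.

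Of the 10 genes, 3 rose at the high dose, 2 of them rose already at the medium dose, and none passed the test at the low dose. PPP1R15A, the stress-inducible phosphatase subunit, was 7.66-fold higher at the high dose. EIF4EBP1, whose protein binds the cap-binding factor eIF4E and holds back cap-dependent translation, was 2.27-fold higher, and OMA1 was 1.67-fold higher. The transcripts of the 4 kinases and of eIF2alpha itself stayed within 1.37-fold of vehicle at each dose. A gene was called changed when its adjusted p was under 0.05 and its fold change over 1.5 in either direction.

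At the high dose 3 of the 10 genes were called, where 18.2% of all 19453 genes with an adjusted p were called, and all 3 were higher, where 8.66% of all genes were called higher. At the medium dose 2 of the 10 were called, both higher, against 3.81% of 14082 genes called either way and 2.34% called higher. The low dose gave 0 calls among the 10 by DESeq2 and also by edgeR. Across all genes 0.118% of 9304 were called at that dose, which is 11 genes, with 6 without low replicate 1 or low replicate 2 and 7 without vehicle replicate 3. The median log2 fold change of the 10 genes was 0.32, 0.14 and 0.04 at the high, medium and low dose, whereas the medians over all genes with an adjusted p were -0.01, -0.00055 and 0.0056.

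**Figure D1:**
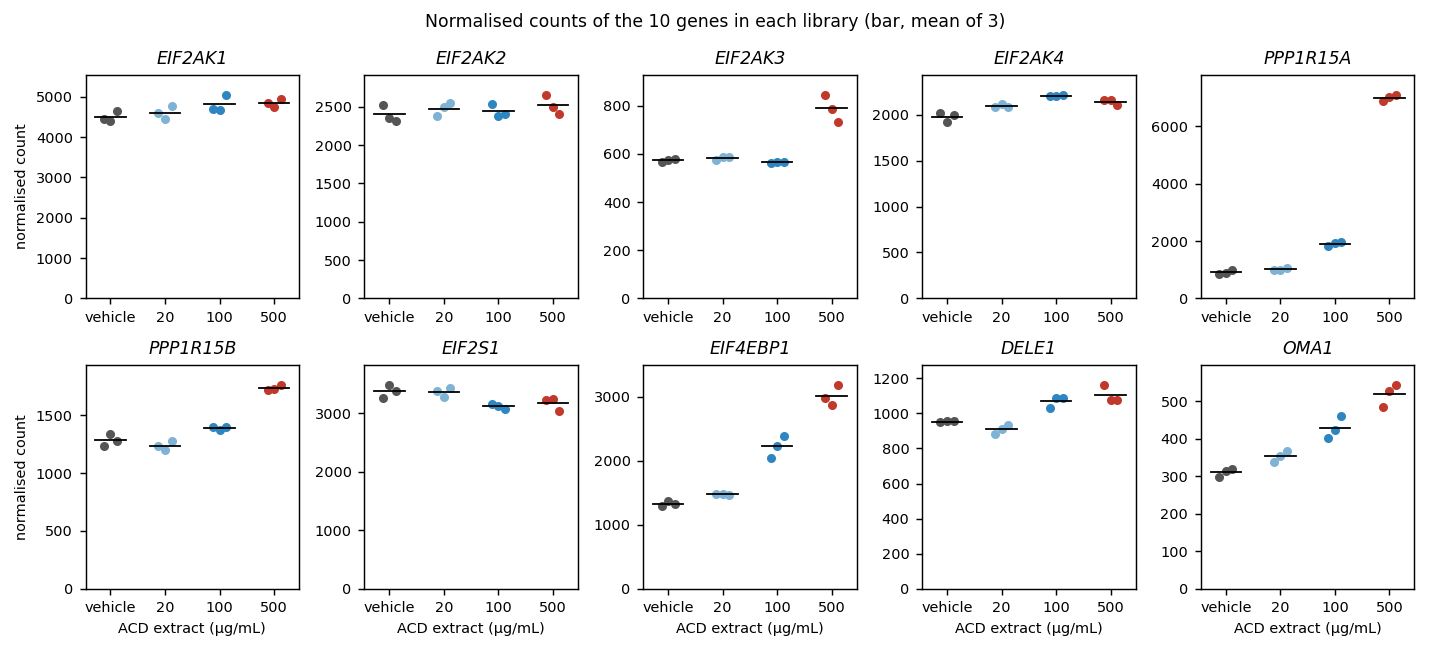
Normalised counts of the 10 genes (vertical axes from 0, 1 panel per gene) in each of the 12 libraries, by dose of the extract in µg/mL; points are libraries and bars are means of 3. PPP1R15A climbs from at most 986 in vehicle to at least 6885 at 500 µg/mL, and EIF2AK3 leaves its range of 563 to 587 at 500 µg/mL and at no lower dose.

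The start of PPP1R15A carries sequence of a kind that transcription factors of the ATF and CREB family can bind, and 2 short windows are shown because this gene changed most. Promoter sequences were those of RefSeq on GRCh38.p14, taken over 250 bases before the start of each gene, and were given for 8 of the 10 genes, all but EIF2AK1 and EIF4EBP1. Both strands were searched for the CRE palindrome TGACGTCA, its core TGACGT, the C/EBP-ATF element TGATGNAA and the ER stress element, which is CCAAT followed by CCACG after 9 free bases. The first PPP1R15A window, chr19:48872352-48872381 on the plus strand, holds the full palindrome in capitals, which ends 50 bases before the RefSeq start site. The second, chr19:48872257-48872286 on the plus strand, holds a further core in capitals. For 6 of the 8 genes the RefSeq start lies downstream of the edge of the GENCODE gene, which is the outermost start of all its transcripts. The distance is 16 bases for DELE1, 70 for PPP1R15B, 209 for PPP1R15A and up to 64054 for EIF2AK3. Both PPP1R15A windows therefore lie inside the GENCODE span of the gene.
PPP1R15A, palindrome: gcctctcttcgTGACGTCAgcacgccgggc
PPP1R15A, core: gaaactccgccgTGACGTtgcaaaagctgg

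The paralogue PPP1R15B, which moved far less, is shown beside it with its C/EBP-ATF element at chr1:204412026-204412055 and a core at chr1:204411901-204411930, both on the minus strand and in capitals. DELE1 holds a core on the strand opposite to the gene, shown in capitals on the plus strand at chr5:141923719-141923748.
PPP1R15B, C/EBP-ATF element: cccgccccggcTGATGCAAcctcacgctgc
PPP1R15B, core: ggattttgcgagTGACGTtgggcggcgcgg
DELE1, core: tgcccttgccgcACGTCAccgccccgctgg

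The palindrome was found in 1 of the 8 promoters, that of PPP1R15A, and in 1.65% of 35116 RefSeq promoters of the same length. The core, which every palindrome also contains, was found in 3 of the 8 and in 7.10% of all promoters. TGATGNAA was found in 1 of the 8 and in 3.14% of all, and the ER stress element in 0 of the 8 and in 0.0740% of all. These matches are letters in a fixed window and say nothing on whether a factor was bound there in these cells.

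PPP1R15A (ENSG00000087074, chr19:48872212-48876059 on the plus strand, GRCh38) encodes GADD34, the subunit that brings PP1 to phosphorylated eIF2alpha. Its normalised counts in the 3 vehicle libraries were 864, 896 and 986. They were 998, 993 and 1066 at the low dose and 1812, 1938 and 1970 at the medium dose. At the high dose they were 6885, 7026 and 7104. The libraries of the 4 groups did not overlap, with the gap between vehicle and low dose the narrowest. The means were 915 ± 63.1, 1019 ± 40.7, 1907 ± 83.9 and 7005 ± 111 (SD, n = 3) in order of dose.

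The log2 fold change of PPP1R15A against vehicle was 2.94 (SE 0.0479) at the high dose, with an adjusted p below the smallest number that the software stores. At the medium dose it was 1.06 (SE 0.0506, adjusted p = 4.67e-95), a fold of 2.09 with a 95% interval from 1.95 to 2.24. At the low dose it was 0.16 (SE 0.0537, adjusted p = 0.0840). The low dose value thus missed the threshold, with an interval from 1.04-fold to 1.20-fold, and it passed adjusted p alone when vehicle replicate 3 was left out (adjusted p = 0.0165) and by edgeR (adjusted p = 0.0350), in neither case with a fold over 1.5.

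Between neighbouring doses, PPP1R15A rose 1.87-fold from low to medium and 3.67-fold from medium to high. It was the 1 gene of the 10 called from medium to high, a contrast in which 10.2% of 16467 genes were called. From low to medium 2 of the 10 were called, against 1.94% of 14082 genes. The doses are spaced evenly on a log scale, and the upper step of PPP1R15A exceeded its lower step by 0.97 on the log2 scale (SE 0.0814, adjusted p = 2.40e-30). This test of the steps was chosen after the values had been seen.

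PPP1R15B (ENSG00000158615, chr1:204396492-204411887 on the minus strand) encodes CReP, the constitutive partner of GADD34. Normalised counts were 1235, 1340 and 1276 with vehicle, and 1237, 1196 and 1280 at the low dose. With the medium dose they were 1397, 1369 and 1403, and with the high dose 1717, 1725 and 1762. The high dose libraries lay above all others, while vehicle and low dose overlapped. The fold at the high dose was 1.35 (log2 0.43, SE 0.050, adjusted p = 4.02e-17), with an interval from 1.26 to 1.45, so the change passed the p but stayed under the fold of 1.5. At the medium dose the log2 fold change was 0.11 (SE 0.0511, adjusted p = 0.0800). A lncRNA on the opposite strand shares 5.60% of its exon bases, and whether reads were counted by strand is not stated.

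The balance of the phosphatase subunits shifted towards PPP1R15A. Levels per kb, meaning normalised counts divided by the length of the canonical transcript, were set against each other within each library, which leaves library scaling out. The ratio of PPP1R15A to PPP1R15B was 1.57, 1.50 and 1.73 in the vehicle libraries and 1.81, 1.86 and 1.86 at the low dose. It was 2.90, 3.17 and 3.14 at the medium dose and 8.97, 9.11 and 9.02 at the high dose. The 4 groups did not overlap, and the high dose libraries lay within a narrow band. The mean log2 ratio was higher by 2.50 at the high dose than in vehicle. An exact permutation test for any difference among the 4 groups, over 369600 assignments, gave p = 6.49e-05, the smallest it can give. Adjusted over the 6 ratios tested it was 0.00039. This test has no direction and does not single out the high dose against vehicle. The geometric mean ratios were 1.59, 1.84, 3.07 and 9.04 in order of dose.

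**Figure D2:**
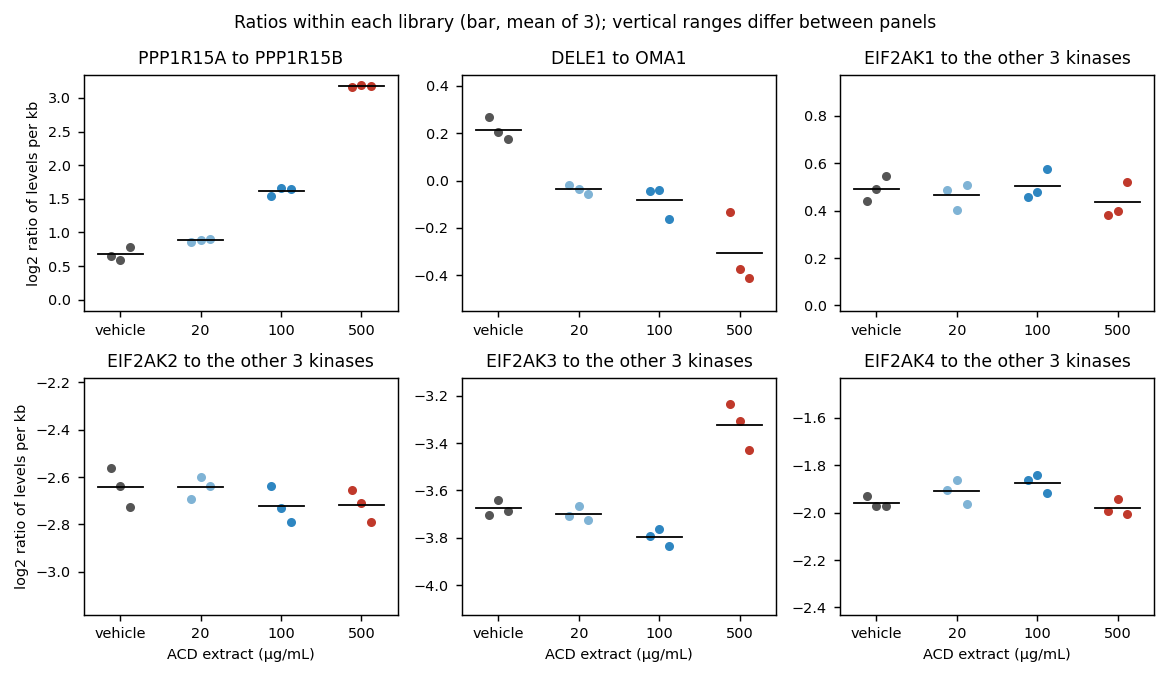
Log2 ratios of levels per kb within each library (vertical axes, ranges differ between panels) by dose in µg/mL; points are libraries and bars are means of 3. PPP1R15A to PPP1R15B rises from 0.67 to 3.18 on average, DELE1 to OMA1 falls from 0.22 to -0.31, and of the 4 kinase panels that of EIF2AK3 is the one where all 3 libraries at 500 µg/mL lie above every other library.

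OMA1 (ENSG00000162600, chr1:58415384-58546802 on the minus strand) encodes a zinc metalloprotease of the inner mitochondrial membrane that is activated when the membrane potential falls, and that cuts OPA1 as well as DELE1. Normalised counts of 299, 315 and 321 were found with vehicle, followed by 339, 355 and 367 at the low dose. They reached 403, 424 and 462 with the medium dose and 484, 528 and 543 with the high dose. The 4 groups stood in order of dose with no overlap between libraries. The log2 fold change was 0.74 (SE 0.0929, adjusted p = 1.66e-14) at the high dose, a fold with an interval from 1.47 to 1.89 that reaches below the threshold of 1.5. At the medium dose it was 0.47 (SE 0.0945, adjusted p = 8.95e-06), a fold of 1.38. At the low dose it was 0.18 (SE 0.0964, adjusted p = 0.376). OMA1 had the fewest counts of the 10 genes and the widest SE, and 6.91% of its exon bases are shared with DAB1 on the same strand, which had a mean of 7.42 counts.

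DELE1 (ENSG00000081791, chr5:141923855-141942047 on the plus strand) encodes the messenger that OMA1 cuts. Its libraries held 949, 956 and 954 normalised counts with vehicle and 881, 913 and 932 at the low dose. They held 1032, 1088 and 1087 at the medium dose and 1162, 1075 and 1078 at the high dose. The medium and high doses overlapped each other and lay above vehicle, and the low dose lay below it. At the high dose the fold was 1.16 (log2 0.21, SE 0.0583, adjusted p = 0.000872), and at the medium dose 1.12 (log2 0.17, adjusted p = 0.0184), both past the p and under the fold. The low dose fold was 0.953 (adjusted p = 0.664). Leaving out any 1 vehicle library, or medium replicate 2 or 3, raised the medium dose value above the threshold, to an adjusted p between 0.0633 and 0.106.

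Per kb, DELE1 stood above OMA1 in vehicle and below it at each dose. The ratio of DELE1 to OMA1 was 1.20, 1.15 and 1.13 in vehicle, 0.987, 0.975 and 0.963 at the low dose, 0.970, 0.973 and 0.893 at the medium dose and 0.911, 0.772 and 0.753 at the high dose. Each dosed library thus lay below each vehicle library, and the high dose libraries spread the most. The mean log2 ratio fell by 0.52 from vehicle to high dose, and the exact permutation test of the 4 groups gave p = 0.000909, or 0.00182 adjusted over the 6 ratios. The order of the 2 genes rests on the transcript lengths used, whereas the change of their ratio does not.

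EIF4EBP1 (ENSG00000187840, chr8:38030534-38060365 on the plus strand) encodes 4E-BP1, which binds eIF4E unless the kinase mTORC1 phosphorylates it. Vehicle libraries had 1291, 1368 and 1322 normalised counts, and low dose libraries 1477, 1483 and 1460. Those of the medium dose had 2048, 2232 and 2390, and those of the high dose 2980, 2877 and 3183. The groups stood in order of dose without overlap, and the spread widened at the 2 upper doses (means 1327 ± 39.0, 1473 ± 12.2, 2223 ± 171 and 3013 ± 156, SD, n = 3).

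Against vehicle, EIF4EBP1 had a log2 fold change of 1.18 (SE 0.0551, adjusted p = 2.27e-100) at the high dose and 0.75 (SE 0.0559, adjusted p = 1.44e-38) at the medium dose, which are folds of 2.27 and 1.68. At the low dose the log2 fold change was 0.15 (SE 0.0573, adjusted p = 0.147), while edgeR gave an adjusted p of 0.0263 with a fold that also stayed under 1.5. The step from low to medium was 1.51-fold (adjusted p = 9.75e-25), close to the threshold, and the call was lost without medium replicate 3, when the log2 step was 0.54. From medium to high the fold was 1.35 (adjusted p = 3.30e-15). The upper and lower steps of EIF4EBP1 differed by -0.16 on the log2 scale (SE 0.0941, adjusted p = 0.282).

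None of the 4 kinases was called against vehicle at any dose. Over all genes 18.2%, 3.81% and 0.118% were called at the high, medium and low dose, so 0 of 4 does not set the kinases apart. EIF2AK3 (ENSG00000172071, chr2:88556741-88691518 on the minus strand) encodes PERK, the kinase that senses unfolded protein in the endoplasmic reticulum. Its libraries held 568, 576 and 579 normalised counts with vehicle, 576, 585 and 587 at the low dose and 563, 566 and 568 at the medium dose. At the high dose they held 845, 787 and 733. The first 3 groups lay between 563 and 587, and each high dose library lay above all of them. High dose and vehicle differed by a log2 fold change of 0.46 (SE 0.0725, adjusted p = 1.89e-09), a fold of 1.37 with an interval from 1.24 to 1.51. At the medium dose it was -0.02 (SE 0.0750, adjusted p = 0.876) and at the low dose 0.02 (adjusted p = 0.942).

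The step of EIF2AK3 from medium to high was 1.39-fold (adjusted p = 5.78e-10) and that from low to medium 0.971-fold (adjusted p = 0.784). These steps differed by 0.52 on the log2 scale (SE 0.129, adjusted p = 0.000778). PPP1R15A and EIF2AK3 were the 2 of the 10 genes with unequal steps, where 16.3% of 13484 genes passed the same test, 2201 in all and 1437 without medium replicate 2. The number among the 10 was 2 with each library left out in turn. In both the step to the high dose was the larger. For the remaining 8 genes the adjusted p of the difference between steps lay between 0.195 and 0.977.

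EIF2AK1 (ENSG00000086232, chr7:6022247-6059175 on the minus strand) encodes HRI, first known as a heme sensor and the kinase that DELE1 activates. It ranged from 4399 to 4640 normalised counts in vehicle and from 4748 to 4948 at the high dose, a fold of 1.08 (adjusted p = 0.0105). EIF2AK4 (ENSG00000128829, chr15:39934115-40035591 on the plus strand) encodes GCN2, which senses uncharged tRNA when amino acids run short. It ranged from 1920 to 2020 in vehicle, from 2199 to 2215 at the medium dose and from 2101 to 2165 at the high dose. Its fold was 1.12 at the medium dose (adjusted p = 0.000770) and 1.08 at the high dose (adjusted p = 0.0118), and the libraries of both doses lay above vehicle. EIF2AK2 (ENSG00000055332, chr2:37099210-37157522 on the minus strand) encodes PKR, which senses double-stranded RNA. It ranged from 2319 to 2531 in vehicle and from 2402 to 2657 at the high dose, which overlap, with a fold of 1.05 (adjusted p = 0.255) and an interval from 0.982 to 1.12. The exons of EIF2AK1 share 9.69% of their bases with AIMP2 on the opposite strand. Its deposited counts were not whole in any of the 12 libraries, which means that some of its reads were shared with other genes. The same held in 11 libraries for EIF2AK3, 7 for EIF2S1, 4 for EIF2AK2 and 1 for OMA1.

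EIF2S1 (ENSG00000134001, chr14:67360328-67386516 on the plus strand) encodes eIF2alpha, the substrate of all 4 kinases, and was the 1 gene of the 10 with a negative change at both upper doses. It ranged from 3265 to 3478 normalised counts in vehicle, from 3273 to 3430 at the low dose, from 3076 to 3161 at the medium dose and from 3037 to 3239 at the high dose. The medium and high dose libraries lay below all vehicle libraries. The log2 fold change was -0.11 (SE 0.0383, adjusted p = 0.0140) at the medium dose and -0.09 (SE 0.0382, adjusted p = 0.0362) at the high dose, with intervals from 0.878 to 0.974 and from 0.891 to 0.988 on the fold scale.

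By adjusted p with no demand on the fold, 9 of the 10 genes passed at the high dose, where 46.5% of all genes did. The exception was EIF2AK2. At the medium dose 7 passed, where 29.5% of all genes did. The shares are not like for like. The 10 genes had means of 403 to 4689 normalised counts. Genes with means down to 1.72 entered the share at the high dose, and down to 18.3 at the medium dose. No share among genes with similar counts was computed. At the low dose 0 of the 10 passed by DESeq2, where 3.29% of all genes did. By edgeR 2 passed, PPP1R15A and EIF4EBP1, and the share of all genes by that test was not computed. Between neighbouring doses 5 of the 10 passed from medium to high, against 40.9% of all genes, and 6 from low to medium, against 18.9%. These small changes rest on single libraries in part. Without vehicle replicate 2 the number at the high dose was 6, since EIF2AK1 (adjusted p = 0.0783), EIF2AK4 (adjusted p = 0.116) and EIF2S1 (adjusted p = 0.217) no longer passed. EIF2S1 also failed without vehicle replicate 3, medium replicate 2 or high replicate 3 (adjusted p between 0.0530 and 0.246), EIF2AK1 without high replicate 3 (0.0609 adjusted) and EIF2AK4 without high replicate 2 (0.0636 adjusted). At the medium dose the number fell to 4 without vehicle replicate 2 or medium replicate 3. There EIF2AK1 failed without vehicle replicate 1 or 2 or medium replicate 3 (adjusted p between 0.129 and 0.320), and EIF2S1 without vehicle replicate 2 or medium replicate 2 or 3 (adjusted p between 0.0520 and 0.144).

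Over the whole dose series, the likelihood ratio test of the 4 groups passed for 9 of the 10 genes. It passed for 45.8% of 19453 genes, and the share among genes with similar counts was not computed here either. EIF2AK2 was the exception (adjusted p = 0.689). The number was 8 without vehicle replicate 1 or high replicate 3, and 7 without vehicle replicate 2. PPP1R15A, EIF4EBP1, OMA1 and EIF2AK1 had group means in the order of dose, and the other 6 did not. For EIF2AK1 the libraries of neighbouring groups overlapped. The share of all genes with means in this order was not computed, so the count is not a result about the 10 genes.

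**Figure D3:**
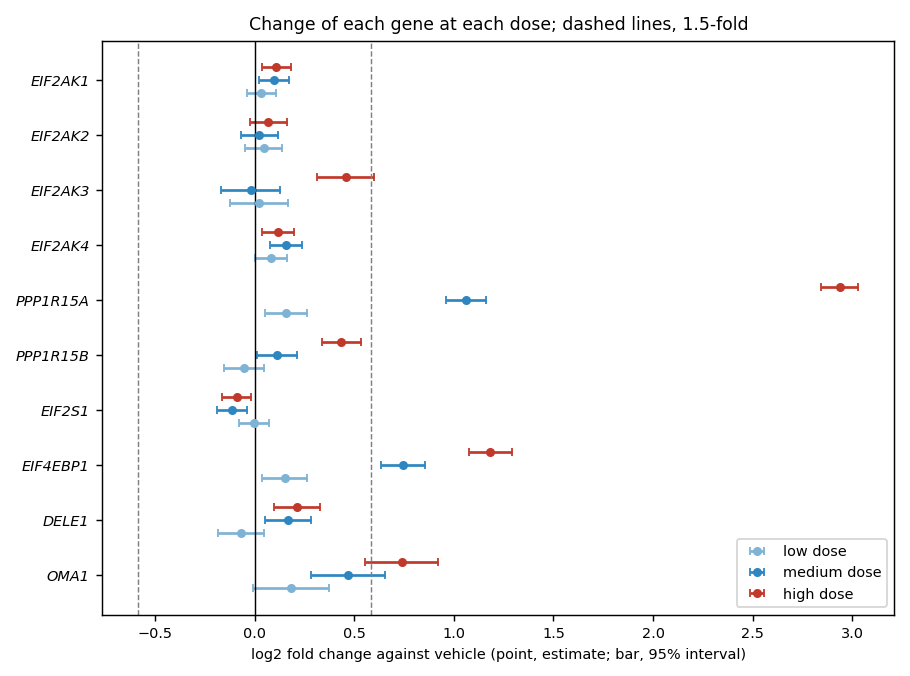
Log2 fold change against vehicle (horizontal axis) of the 10 genes at each dose; points are DESeq2 estimates, bars are 95% intervals and dashed lines mark 1.5-fold. PPP1R15A, EIF4EBP1 and OMA1 lie past the line at the high dose, with the OMA1 interval reaching back across it, and no gene lies past it at the low dose.

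Among the kinases EIF2AK1 made up most of the transcript per kb. It held 58.5% ± 0.879 (SD, n = 3) of the summed level per kb of the 4 kinases in vehicle and 57.5% ± 1.27 at the high dose. EIF2AK4 held 20.5% ± 0.275 and 20.2% ± 0.386, and EIF2AK2 held 13.8% ± 0.676 and 13.2% ± 0.537. EIF2AK3 held the least, 7.26% ± 0.156 in vehicle, 7.15% ± 0.141 at the low dose and 6.71% ± 0.149 at the medium dose, against 9.09% ± 0.557 at the high dose. The ratio of EIF2AK3 to the other 3 kinases together was 0.0769, 0.0803 and 0.0776 in vehicle and 0.106, 0.101 and 0.0928 at the high dose, without overlap. It was 0.0722, 0.0736 and 0.0702 at the medium dose, below every vehicle library. The exact permutation test over the 4 groups gave p = 0.00026 (0.000779 adjusted over the 6 ratios). The same test gave adjusted p = 0.0677 for EIF2AK4, with 0.0286 when low replicate 3 was left out, 0.446 for EIF2AK2 and 0.543 for EIF2AK1. These shares and ratios rest on the canonical transcript lengths. With lengths over all annotated exons, EIF2AK2 stood above EIF2AK4 in vehicle, at ranks 5 and 6 among the genes followed here. The shares and ratios were not recomputed with those lengths, on which the sizes of their shifts also depend.

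Ranked by level per kb in vehicle, EIF4EBP1 stood first at 1605 normalised counts per kb, followed by EIF2AK1 at 1020 and EIF2S1 at 812. PPP1R15A at 389 and EIF2AK4 at 357 came next and did not overlap between libraries. PPP1R15B at 244 and EIF2AK2 at 241 overlapped and could not be ordered. DELE1 at 194, OMA1 at 167 and EIF2AK3 at 127 closed the order. At the high dose PPP1R15A, at 2981 per kb, had passed EIF2AK1 at 1099 and stood second to EIF4EBP1 at 3643, and OMA1, at 279, had passed DELE1 at 225 and overlapped with EIF2AK2 at 253. With lengths over all annotated exons in place of the canonical transcript, the first 4 ranks were the same in both groups, while EIF2AK4, EIF2AK2, PPP1R15B and DELE1 changed places among ranks 5 to 8 in vehicle, and OMA1 fell from rank 7 to rank 9 at the high dose.

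Surrounding genes of the pathway were grouped in 5 lists. For comparison, 18.2% of all 19453 genes were called at the high dose and 3.81% of 14082 at the medium dose. From medium to high 10.2% of 16467 genes were called. Of the 12 genes for the rest of eIF2, for eIF2B and for related initiation factors, 1 rose at the high dose and the others stayed within 1.5-fold, with a median log2 fold change of 0.14 and a lowest value of -0.32. That gene was EIF2S2, which encodes the beta subunit of eIF2 (log2 fold change 0.74, SE 0.0360, adjusted p = 7.21e-93). The 10 partners of the kinases and of the phosphatase all stayed within 1.5-fold of vehicle at each dose. At the high dose their median log2 fold change came to 0.29, with a range from -0.55 for TARBP2, an inhibitor of PKR, to 0.55 for IMPACT, an inhibitor of GCN2. DNAJC3, an inhibitor of PERK and PKR, was called from medium to high (normalised counts 3797 ± 128 and 5713 ± 152, SD, n = 3). These 3 partners were singled out after their values had been seen.

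Of the 11 genes of the cap-binding complex and mTORC1, 3 rose and 1 fell at the high dose, where 18.2% of all genes were called. Their median log2 fold change was -0.17. EIF4EBP3, a relative of EIF4EBP1, had a log2 fold change of 1.61 (SE 0.307, adjusted p = 7.21e-07) from a low level of 24.3 ± 7.07 normalised counts in vehicle (SD, n = 3). DDIT4, whose protein REDD1 restrains mTORC1, had 1.57 (SE 0.0544, adjusted p = 6.09e-181), and was the 1 gene of this list called at the medium dose. The other 2 were named after their values had been seen: EIF4E3, a cap-binding protein, had 0.70 (adjusted p = 0.0162), and EIF4EBP2, the third member of the 4E-BP family, fell by 0.67 on the log2 scale (SE 0.0412, adjusted p = 1.98e-57). The EIF4EBP genes thus moved in different directions. EIF4EBP2 had 3026 ± 77.0 normalised counts in vehicle and 1906 ± 50.2 at the high dose, where EIF4EBP1 went from 1327 to 3013.

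Of the 12 genes for proteolysis and scaffolds at the inner mitochondrial membrane and in the matrix, where OMA1 works, 1 rose at the high dose. Over all genes 18.2% were called at that dose. The others stayed within 1.5-fold, with a median log2 fold change of the list of 0.07 and a lowest value of -0.25. The gene that rose was LONP1, the main protease of the matrix (log2 fold change 1.15, SE 0.0445, adjusted p = 4.27e-145). It was also the 1 gene of the list called at the medium dose (log2 fold change 0.69). All 7 outputs of the response were called higher at the high dose, where 8.66% of all genes were, with log2 fold changes of 4.73 for ATF3, 4.31 for TRIB3, 3.91 for DDIT3, 2.94 for CHAC1, 2.87 for ASNS, 2.74 for SESN2 and 2.03 for ATF4. All 7 were called higher at the medium dose too, where 2.34% of all genes were, with a median log2 fold change of 1.88. At the low dose, where 0.118% of all genes were called, CHAC1 was the 1 called (log2 fold change 0.69). It encodes an enzyme that degrades glutathione. PPP1R15A was not called there. By the adjusted p of DESeq2 alone, 3.29% of all genes passed at the low dose. ASNS (1.34e-17), ATF4 (2.66e-14) and TRIB3 (8.40e-14) also passed there. So did SESN2 (adjusted p = 0.000581) and DDIT3 (adjusted p = 0.00252), all with folds under 1.5, whereas ATF3 did not (adjusted p = 0.598). These lists were chosen with earlier results of the same libraries known, so the direction of the outputs is no independent evidence.

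**Figure D4:**
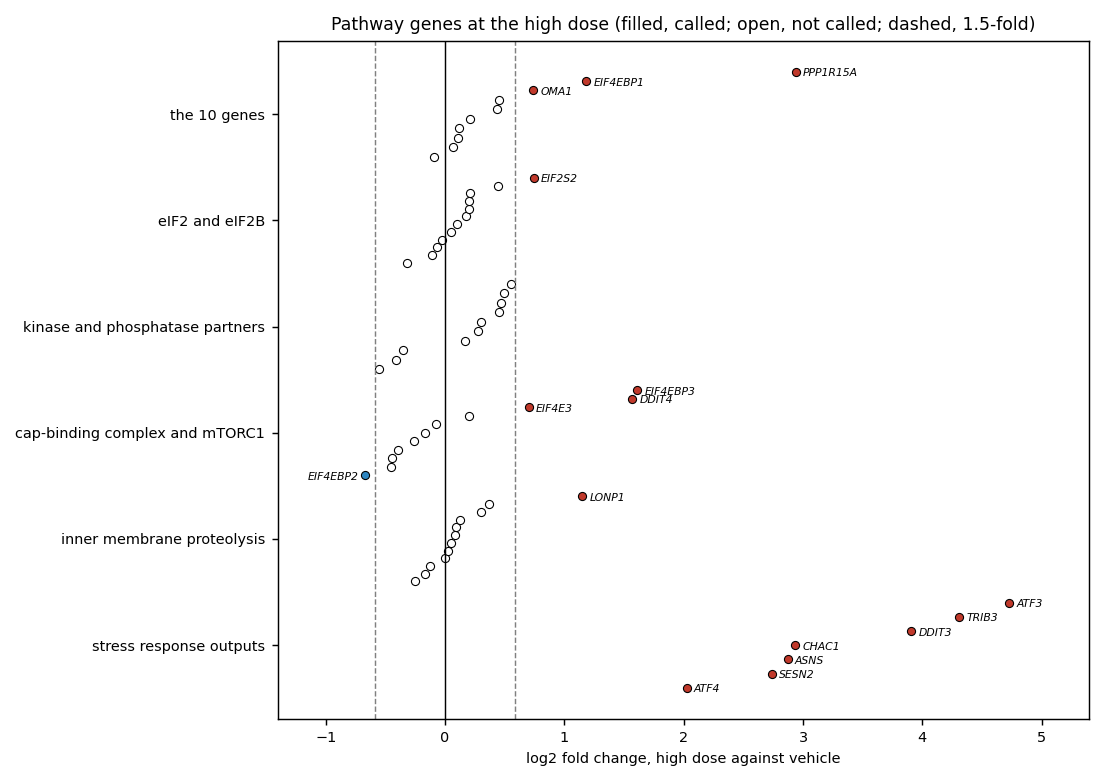
Log2 fold change at the high dose against vehicle (horizontal axis) for the 10 genes and 5 lists of surrounding genes; each point is a gene, filled where called, and dashed lines mark 1.5-fold. The 7 outputs lie at 2.03 and above, while the other 4 lists have medians between -0.17 and 0.29 and hold 5 genes called higher and 1 called lower. Over all genes 18.2% were called at this dose.

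The genes with the pattern most like each of the 3 called genes were sought among 10726 protein-coding genes with a mean of at least 100 normalised counts, by Pearson correlation of variance-stabilised values over the 12 libraries. For PPP1R15A these were BTG1, LARP1B and E2F7 (r from 0.998 to 0.999). For EIF4EBP1 they were CAMTA2, SLC44A2 and ATP2A3 (r from 0.995 to 0.998), and for OMA1 CFAP97, RHBDF2 and MAST2 (r from 0.987 to 0.992). The libraries share 4 dose groups, and 1218, 612 and 410 genes had an r over 0.95 with PPP1R15A, EIF4EBP1 and OMA1, so a high value is common in this design. By Spearman's rank correlation 0, 1 and 1 of these 3 genes were again among the first 3.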

How the data were processed

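RNA was sequenced from 12 libraries, and groups came from the sample titles. The authors checked reads with FastQC 0.11.9 and used Trim Galore 0.6.5, STAR 2.7.3a and RSEM 1.3.3, versions as the submitters' processing notes give them, with an Ensembl annotation of GRCh38. The strand setting of RSEM and any poly(A) selection are not stated in the sources used here. The deposited values are RSEM expected counts, which share reads among genes; 8.75% were not whole, and they were rounded here. Each column matched 1 library, with 0 left over. Symbols and coordinates (1-based) came from GENCODE v44, which held 93.2% of the IDs and 99.9% of the counts.

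All genes with a count were fitted in R 4.3.3 with DESeq2 1.42.0 (two-sided Wald test, group as the sole term, Benjamini-Hochberg adjustment, independent filtering at 0.05), and the likelihood ratio test compared the 4 groups. At total counts of 18863863 to 24200576 the median SE of a log2 fold change was 0.07 for genes with a mean of at least 100. Each pair of replicates differed by more than counting noise (chi-square per degree of freedom 2.76 to 3.76 between low dose libraries and 2.05 to 2.77 in the other groups), so no 2 were counted as 1. Same-numbered low and medium dose libraries deviated together (r from 0.13 to 0.25), a hint of pairing that the main fit left out. In no other comparison were all 3 pairs above 0.1. The tests were tried on simulated data. The alternatives were edgeR 4.0.16, other scalings, filters and fold thresholds, the 2 groups alone, a replicate block and leaving out each library.

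All 10 genes are named, with the 2 largest calls of each pathway list, all outputs and the 3 genes most like each called gene; other names are marked. The genes and lists were chosen with earlier results of these data known.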

Additional observations from a re-analysis of the deposited data

How the results depend on the processing

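The log2 fold changes of the called genes kept direction and call under 18 of 18 alternatives each, from 2.90 to 2.99 for PPP1R15A, 1.14 to 1.22 for EIF4EBP1 and 0.70 to 0.78 for OMA1 at the high dose, and from 1.02 to 1.12 for PPP1R15A and 0.69 to 0.80 for EIF4EBP1 at the medium dose. With adjusted p alone, the number of the 10 genes called was 9 with the high dose, 7 with the medium dose, 5 from medium to high and 6 from low to medium. Leaving out 1 library gave 1 to 2 genes called from low to medium. It also turned the sign of 2 small values, with ranges from -0.028 to 0.019 for EIF2S1 at the low dose (0.019 without vehicle replicate 2 and 0.013 without low replicate 2) and from -0.0063 to 0.061 for EIF2AK2 at the medium dose (-0.0016 without vehicle replicate 3 and -0.0063 without medium replicate 1). The ratio of EIF2AK4 to the other kinases, -0.02 between high dose and vehicle, ranged from -0.042 to -0.0084. Between vehicle and high dose alone, where 3 against 3 cannot go below 0.1, the ratios of PPP1R15A to PPP1R15B (2.50), DELE1 to OMA1 (-0.52) and EIF2AK3 to the other kinases (0.35) each had an exact permutation p of 0.2 after adjustment. By Spearman correlation 0, 1 and 1 of the 3 genes most like PPP1R15A, EIF4EBP1 and OMA1 recurred. By edgeR the calls over all genes were 912 against 537 at the medium dose, 131 against 11 at the low dose and 543 against 273 from low to medium, with the same numbers of the 10 genes called. With 6 genes by the fit on the 2 groups alone and 18 without independent filtering, the low dose count over all genes also moved. The causes were not tested.

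After removal of group means, same-numbered libraries correlated at 0.04 to 0.27 among the dosed groups and at -0.12 to 0.02 between vehicle and dose, and 8 of 12 libraries correlated best with one of their own number, a hint of pairing among dosed libraries. The block changed no call from low to medium, where PPP1R15A and EIF4EBP1 were called with it too. With the replicate number as a block 3, 2 and 0 of the 10 genes were called at the high, medium and low dose, as without it, and 3297, 488 and 11 of all genes. EIF2S1 at the high dose (0.0652) and DELE1 at the medium dose (0.0597) then missed the adjusted p. Independent filtering left genes with a mean under 263 normalised counts without an adjusted p at the low dose.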
